A study of Rattus norvegicus with 9 samples.

Results

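The genes of the mitochondrial respiratory chain were followed in hepatic macrophages of rats whose portal vein had been partly tied off (partial portal vein ligation, PPVL), a surgical model of portal hypertension. Members were chosen by symbol, from the genes with a probeset that carries a single gene symbol, with the probeset of the highest mean standing for the gene. Symbols beginning with Ndufa, Ndufb, Ndufc, Ndufs, Ndufv, Sdh, Uqcr, Cox4 to Cox8 or Atp5 were taken, together with Cycs. The rule gave 104 of 18166 genes on the array, and 97 of them were bright enough to be tested among 14014 genes. Of the 104 members, 67 are subunits of the chain itself, and all 67 passed the filter on dim genes. The prefixes also took 11 assembly factors (10 tested), 17 gene copies or pseudogenes (14 tested), 7 isoforms of other tissues (4 tested) and 2 regulators (both tested), which are described apart from the subunits.

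RNA of each rat was hybridised to a 1-colour Affymetrix array, and the deposited values are log2 signals after robust multi-array average (RMA) processing by the authors. The 3 groups were 3 rats with sham surgery, in which the portal vein was handled but no ligature was tied, 3 rats studied 3 days after PPVL and 3 rats studied 10 days after PPVL. All rats were male Sprague-Dawley with no genetic change named in the labels, and their ages and the day on which sham rats were studied were not given. The labels number the rats of each group but say nothing of separate surgery days, so p-values measure the spread between these 9 arrays. As a model, a calibrated stenosis raises portal pressure without an injury aimed at the liver cells.

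The respiratory chain sits in the inner mitochondrial membrane. Complex I takes electrons from NADH and complex II from succinate, both pass them through ubiquinone to complex III, and cytochrome c carries them on to complex IV, which reduces oxygen. Complexes I, III and IV pump protons, and complex V, the ATP synthase, uses the returning protons to make ATP. In macrophages, inflammatory activation is known to lower respiration in favour of glycolysis, while alternative activation relies on it. Most subunits are encoded in the nucleus, and their promoters are known for sites of NRF1, GABPA (a factor of the ETS family) and YY1.

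Over all 36685 probesets, array medians lay between 5.21 and 5.26 and pairwise correlations between 0.987 and 0.993. All 13 macrophage markers on the list were above the filter, with mean log2 signals of 12.85 for Lyz2, 11.17 for Cd68 and 10.25 for Csf1r. The markers of resident Kupffer cells lay near the filter of 4.16, with 5.03 for Clec4f, 4.40 for Timd4 and 4.26 for Vsig4. T cell genes were bright as well (Cd3e at 9.48 and Cd8a at 10.26). Natural killer cell markers ran from 7.49 (Eomes) to 11.71 (Prf1) and B cell markers from 5.60 (Cr2) to 9.99 (Fcer2). The mean of the 11 T cell markers, each gene taken relative to its own mean over the 9 arrays, ranged from 0.095 to 0.315 in sham, from -0.212 to 0.087 at 3 days and from -0.240 to -0.092 at 10 days. Without overlap with sham, 10 of the 11 were lower and 1 was higher at 10 days, beside 11.1% and 9.88% of all genes. The mean over the 13 macrophage markers, taken in the same way, ran from -0.258 to -0.233 in sham, from 0.068 to 0.340 at 3 days and from 0.026 to 0.117 at 10 days. For 9 hepatocyte markers (Alb at 7.91) it ran from -0.265 to -0.059, from -0.103 to 0.225 and from -0.007 to 0.133 in the same order. The 8 B cell markers averaged -0.341 to -0.319 in sham, -0.068 to 0.400 at 3 days and 0.088 to 0.346 at 10 days. All 8 were higher at 10 days at an unadjusted p under 0.05, beside 7.99% of all genes tested. Sham replicate 1 stood apart for the 10 neutrophil markers, at -0.925 against 0.182 and 0.269 in the other sham rats. These mixtures moved with the groups, and their part in the results was not tested. Fits with a marker score as a covariate are given below as a description. A score that moves with the groups cannot be separated from them in such a fit. In bulk RNA, fewer cells of a type and less RNA per cell cannot be told apart.

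At 3 days after PPVL few genes of the respiratory chain differed from sham. Of the 97 members tested, 1 rose and none fell in limma's moderated test at an adjusted p under 0.05, against a background of 2.86% of all 14014 genes called (2.15% higher and 0.714% lower). The gene that rose was Ndufaf7, an assembly factor and not a subunit. None of the 67 subunits reached even an unadjusted p under 0.05, and over all members 1 was higher and 2 were lower at that level, which is 3.09%, against 15.5% of all genes tested (9.10% higher and 6.39% lower). Groups without overlap were found for 2 members that were higher and 5 that were lower (7.22%), against 18.8% of all genes (10.1% higher and 8.66% lower). The share of members past either limit was therefore below the background.

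The size of the differences at 3 days was small in either direction. The median difference (log2) was -0.015 over the 97 members and -0.014 over all genes tested, and single members ranged from -0.36 to 0.35. Below 0 lay 59 of 97 members (60.8%), beside 55.0% of all genes. After quantile normalization of the arrays 71 lay below 0, with a median of -0.031 (-0.022 over all genes), and after median centring 53 lay below 0, with a median of -0.006 (-0.005 over all genes). The 95% interval of the difference lay within 0.5 of 0 on the log2 scale (1.41-fold) for 89 of 97 members and for 64 of 67 subunits. A difference under that size may still exist for these genes.

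**Figure D1:**
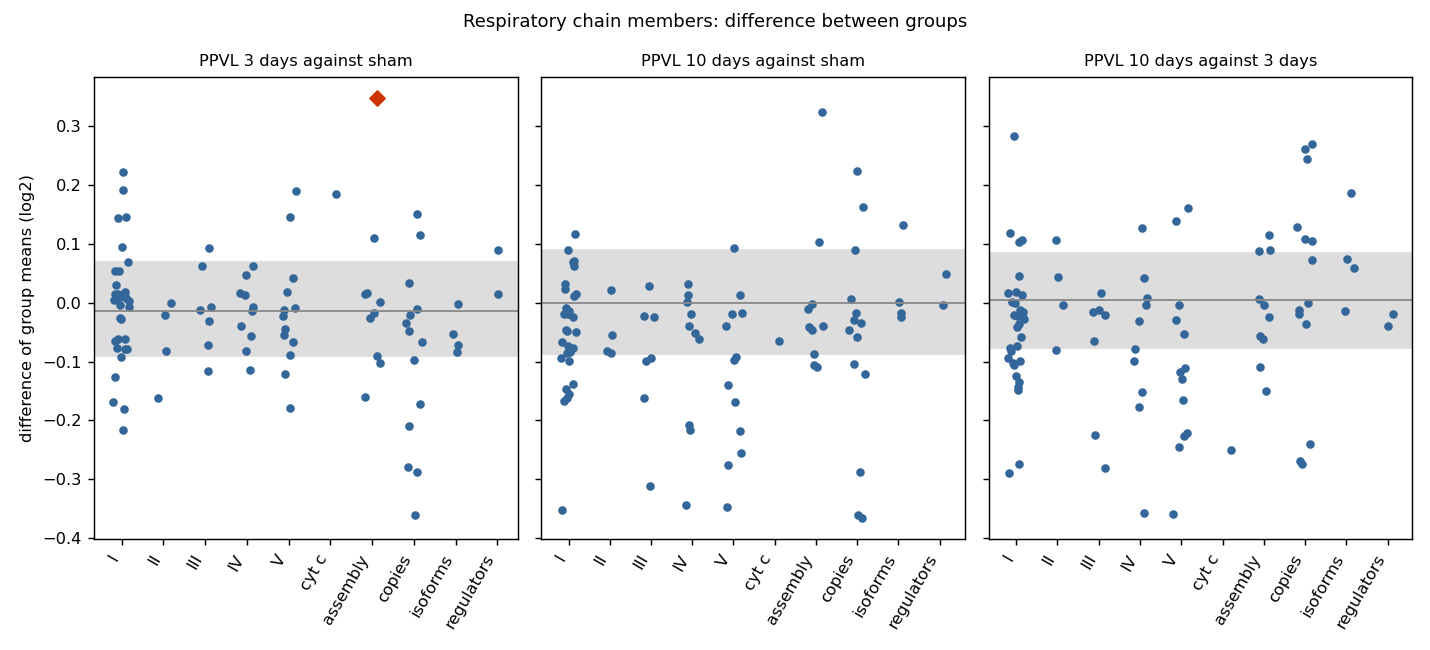
Fitted log2 difference of group means for each tested member (1 point per gene) in the 3 comparisons, by complex for subunits and by class for the other members. The grey line is the median and the grey band the middle quartiles of all genes tested, and the red diamond is the member past the test, Ndufaf7. Against sham, the subunits of complex V reach down to -0.18 at 3 days and -0.35 at 10 days.

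Ndufaf7 is a methyltransferase of the mitochondrial matrix that is needed for the assembly of complex I. Its log2 signal was 6.33, 6.40 and 6.46 in the sham rats, 6.75, 6.83 and 6.65 at 3 days and 6.77, 6.75 and 6.64 at 10 days. Every ligated rat was above every sham rat, and the ligated groups overlapped each other. At 3 days Ndufaf7 rose by 0.35 ± 0.07 (SE; 1.27-fold, 95% interval 0.19 to 0.51, adjusted p = 0.034, limma, n = 3 a group). At 10 days the difference was of like size, 0.32 ± 0.07 (1.25-fold, interval 0.17 to 0.48), and missed the threshold with an adjusted p of 0.0698 (0.51 with the score of T and natural killer cells in the fit, adjusted p = 0.996). The difference between the days was -0.02, with an adjusted p of 0.923. The call at 3 days was lost in 7 of 9 fits that left out a single array, with adjusted p up to 0.115 and differences between 0.303 and 0.394. Those 7 were the fits that left out sham replicate 1, 2 or 3, replicate 1 or 2 at 3 days, or replicate 1 or 2 at 10 days. With the hepatocyte marker score as a covariate the difference was 0.44 (adjusted p = 0.0745), and with that of T and natural killer cells it was 0.46 (adjusted p = 0.479). At 3 days 114 of all 14014 genes were called in the hepatocyte fit and 0 in the other, and at 10 days 0 in both.

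In the rat annotation Ndufaf7 starts head to head with Cebpz, a gene on the other strand whose product is a nucleolar protein. The 105 bases between the starts are shown because they hold the whole stretch upstream of Ndufaf7 that belongs to neither gene (RefSeq promoter table, build GRCr8, chr6:21871966-21872070, minus strand, read 5′ to 3′ towards Ndufaf7, with no capitals because none of the motifs searched was found).
Ndufaf7: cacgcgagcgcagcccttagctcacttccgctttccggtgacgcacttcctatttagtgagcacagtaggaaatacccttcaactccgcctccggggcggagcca
Cebpz differed by -0.04 ± 0.06 at 3 days (adjusted p = 0.835) and by -0.005 ± 0.06 at 10 days (adjusted p = 0.983). The neighbour on the other side, Prkd3, differed by 0.06 ± 0.07 and -0.07 ± 0.07. Neither neighbour was called, and whether the change of Ndufaf7 differs from theirs was not tested.

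The other assembly factors taken by the prefixes gave no call at 3 days. Ndufaf2 was dim, at a mean of 3.95. The 6 tested factors of complex I besides Ndufaf7 differed by -0.10 (Ndufaf6) to 0.11 (Ndufaf5). Sdhaf1, Sdhaf2 and Sdhaf3, which help to build complex II, differed by 0.02, -0.03 and -0.16. At 10 days 8 of the 10 tested factors lay below 0, with Ndufaf3 lowest at -0.11 ± 0.07 (adjusted p = 0.454).

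The subunits with the smallest p at 3 days came from complexes I, II and V. Ndufs7, the core subunit that holds the last iron-sulfur cluster before ubiquinone, differed by 0.15 ± 0.07 (adjusted p = 0.328). Atp5pf, coupling factor 6 in the peripheral stalk of ATP synthase, differed by 0.19 ± 0.09 (adjusted p = 0.350), with 7.23, 7.29 and 7.50 in sham and 7.62, 7.52 and 7.45 at 3 days. The groups of Atp5pf overlapped at 3 days. Ndufb6 and Ndufb3, accessory subunits of the membrane arm of complex I, differed by 0.14 ± 0.07 (adjusted p = 0.395) and 0.22 ± 0.13 (adjusted p = 0.475). Sdhc, a membrane anchor of complex II, differed by -0.16 ± 0.09 (adjusted p = 0.421). With the score of T and natural killer cells in the fit Ndufb6 differed by 0.04, Ndufb3 by 0.12 and Sdhc by -0.27. Within complex I 17 of 32 subunits lay above 0, with a range from -0.22 (Ndufs5) to 0.22 (Ndufb3), so its members went either way.

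At 10 days no member passed the test, against 0.735% of all genes called (0.492% higher and 0.243% lower). The member with the smallest p was Ndufaf7, which was higher, and the 11 next in order were lower. An unadjusted p under 0.05 was reached by 11 members that were lower and 1 that was higher (12.4%), against 16.2% of all genes (7.99% higher and 8.21% lower). Of the 67 subunits, 10 were lower at that level (14.9%) and none was higher. The groups did not overlap for 10 members that were lower and 1 that was higher (11.3%), against 21.0% of all genes (9.88% higher and 11.1% lower). Both directions together, the members' shares were below the background. Split by direction, 11.3% of members and 14.9% of subunits were lower at an unadjusted p under 0.05, above the 8.21% of all genes. Without overlap 10.3% of members and 11.9% of subunits were lower, both near the 11.1% of all genes. Below 0 lay 72 of 97 members (74.2%) and 51 of 67 subunits (76.1%), beside 50.2% of all genes tested. The median was -0.041 over the members and -0.051 over the subunits, against 0.000 over all genes. With each array centred on its median the values were 79 of 97 members and -0.059, beside -0.019 over all genes.

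**Figure D2:**
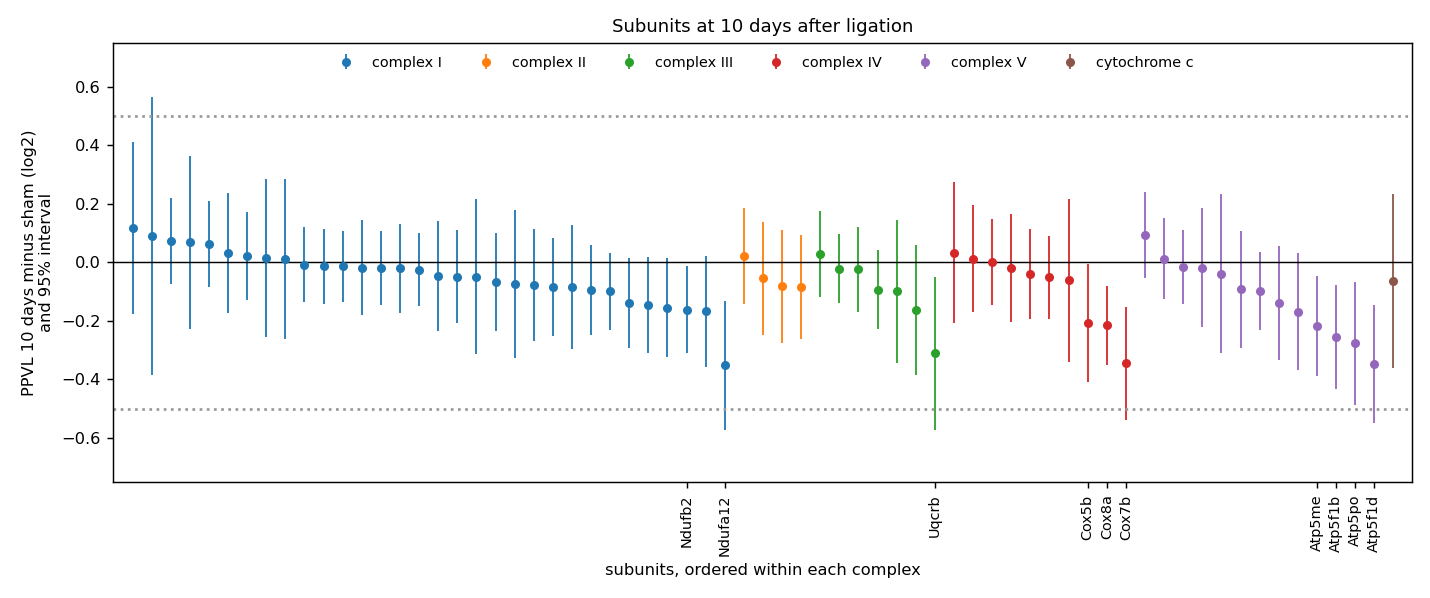
Difference between 10 days after PPVL and sham (log2) for each of the 67 subunits, as points with 95% intervals from the limma fit, ordered within complexes, with dotted lines at 0.5 either side of 0 and names for the subunits at an unadjusted p under 0.05. For 62 of the 67 subunits the whole interval lies between the dotted lines, and 51 points lie below 0.

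Complex V, the ATP synthase, had 11 of its 13 subunits below 0 at 10 days (84.6%, beside 50.2% of all genes), with a median of -0.098. At an unadjusted p under 0.05, 4 of the 13 were lower (30.8%), beside 8.21% of all genes. Atp5f1d, the delta subunit of the central stalk, was at 10.03, 10.09 and 10.14 in sham, 10.02, 9.91 and 9.97 at 3 days and 9.74, 9.92 and 9.55 at 10 days. All rats at 10 days lay below all sham rats, with a difference of -0.35 ± 0.09 (adjusted p = 0.104), or -0.23 with the score of T and natural killer cells in the fit. Atp5f1b, the catalytic beta subunit, was at 10.31, 10.32 and 10.50 in sham and 10.18, 10.11 and 10.07 at 10 days, which is a difference of -0.25 ± 0.08 (adjusted p = 0.156) with no overlap. Over 12 refits with other settings, the one with that score among them, it ran from -0.299 to -0.201. Atp5po, the subunit of the peripheral stalk that confers oligomycin sensitivity, was at 7.57, 7.73 and 7.79 in sham and 7.31, 7.37 and 7.57 at 10 days. Its groups overlapped at 7.57, and its difference was -0.28 ± 0.09 (adjusted p = 0.190), or -0.345 to -0.27 over the same 12 refits. Atp5me, the small membrane subunit e, differed by -0.22 (adjusted p = 0.202) with no overlap. Atp5mk and Atp5pb lay above 0, at 0.09 and 0.01. Atp5if1, the peptide that inhibits the reverse reaction of the synthase and not a subunit of it, differed by 0.09 ± 0.06 at 3 days and 0.05 ± 0.06 at 10 days.

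Complex IV, cytochrome c oxidase, had 7 of 10 nuclear-encoded subunits below 0 at 10 days and a median of -0.045. Cox7b, a small subunit needed for the assembly of the complex, was at 8.02, 7.97 and 7.91 in sham, 8.06, 8.11 and 7.78 at 3 days and 7.64, 7.62 and 7.61 at 10 days. The 3 values at 10 days lay together and below those of all other rats, with a difference from sham of -0.34 ± 0.09 (adjusted p = 0.0946). This was the smallest adjusted p of any subunit. It was called only in the fit without replicate 3 of the 3-day group, with an adjusted p of 0.0458. Adjusted for the marker score of T and natural killer cells, the difference of Cox7b was 0.05, so its direction turned. The means of both marker lists lay apart between sham and 10 days, so that fit cannot separate the score from the group. Cox8a, another small subunit of the oxidase, was at 9.70, 9.82 and 9.78 in sham and 9.61, 9.51 and 9.53 at 10 days, a difference of -0.22 ± 0.06 (adjusted p = 0.122) with no overlap. Over 12 refits with other settings, the one with that score among them, the difference of Cox8a ran from -0.312 to -0.179. Cox5b differed by -0.21 (adjusted p = 0.291).

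The regulatory subunit Cox4i1 was at 9.04, 9.16 and 9.17 in sham, 9.21, 9.11 and 9.01 at 3 days and 9.11, 8.98 and 9.22 at 10 days. Its groups overlapped throughout, with differences of -0.01 and -0.02. Ndufa4, named after complex I and now known as a subunit of complex IV, differed by -0.11 and 0.01, and Cox6a1 by -0.01 and 0.00. The oxidase therefore held subunits that lay lower at 10 days beside others close to sham, and the difference between subunits was not tested.

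Complex I, the largest, had 23 of 32 subunits below 0 at 10 days with a median of -0.036. Ndufa12, an accessory subunit of the arm that binds NADH, was at 6.80, 6.88 and 7.02 in sham, 6.87, 6.80 and 6.80 at 3 days and 6.49, 6.76 and 6.39 at 10 days. The rats at 10 days lay below all others, and the difference from sham was -0.35 ± 0.10 (adjusted p = 0.119). Adjusted for the score of T and natural killer cells it was -0.11 (adjusted p = 1). Among the 32 subunits Ndufa12 stood alone in size, since the next were Ndufa1 at -0.17 and Ndufb2 at -0.16 (adjusted p = 0.272 for Ndufb2). The highest were Ndufb3 at 0.12 and Ndufa2 at 0.09.

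Complex III had 6 of 7 subunits below 0 at 10 days, with a median of -0.093. Uqcrb, a small subunit at the ubiquinone-binding part of the complex, differed by -0.31 (adjusted p = 0.226). Its values were 5.61, 5.28 and 5.35 in sham and 4.89, 5.31 and 5.11 at 10 days, and the groups overlapped. The core protein Uqcrc1 and the iron-sulfur protein Uqcrfs1 differed by 0.03 and -0.02. On 7 of 9 arrays Uqcrfs1 had exactly the same deposited value. Such repeats, with at least 3 arrays sharing a value, occurred in 22 of 97 members (22.7%) and in 3900 of 14014 genes (27.8%), Ndufa12 and Uqcrb among them.

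Complex II, succinate dehydrogenase, was close to sham at both times. Sdha, the subunit that oxidises succinate, was at 8.85, 8.83 and 8.99 in sham, 8.72, 8.75 and 8.96 at 3 days and 8.76, 8.82 and 8.83 at 10 days, with differences of -0.08 and -0.09. The groups overlapped. Its iron-sulfur subunit Sdhb differed by -0.08 at 10 days, and the anchors Sdhc and Sdhd by -0.06 and 0.02. The smallest adjusted p in the complex was 0.421 at 3 days and 0.652 at 10 days. For all 4 subunits the 95% interval lay within 0.5 of 0 at both times.

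Cytochrome c, encoded by Cycs, also a trigger of apoptosis when released, was at 8.74, 8.55 and 8.92 in sham, 9.03, 8.92 and 8.81 at 3 days and 8.86, 8.76 and 8.39 at 10 days. The groups overlapped, with differences of 0.18 ± 0.13 at 3 days (adjusted p = 0.581) and -0.07 ± 0.13 at 10 days (adjusted p = 0.864). A dimmer probeset of Cycs gave -0.063 and -0.316, so the probesets disagreed in sign at 3 days and in size at 10 days.

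**Figure D3:**
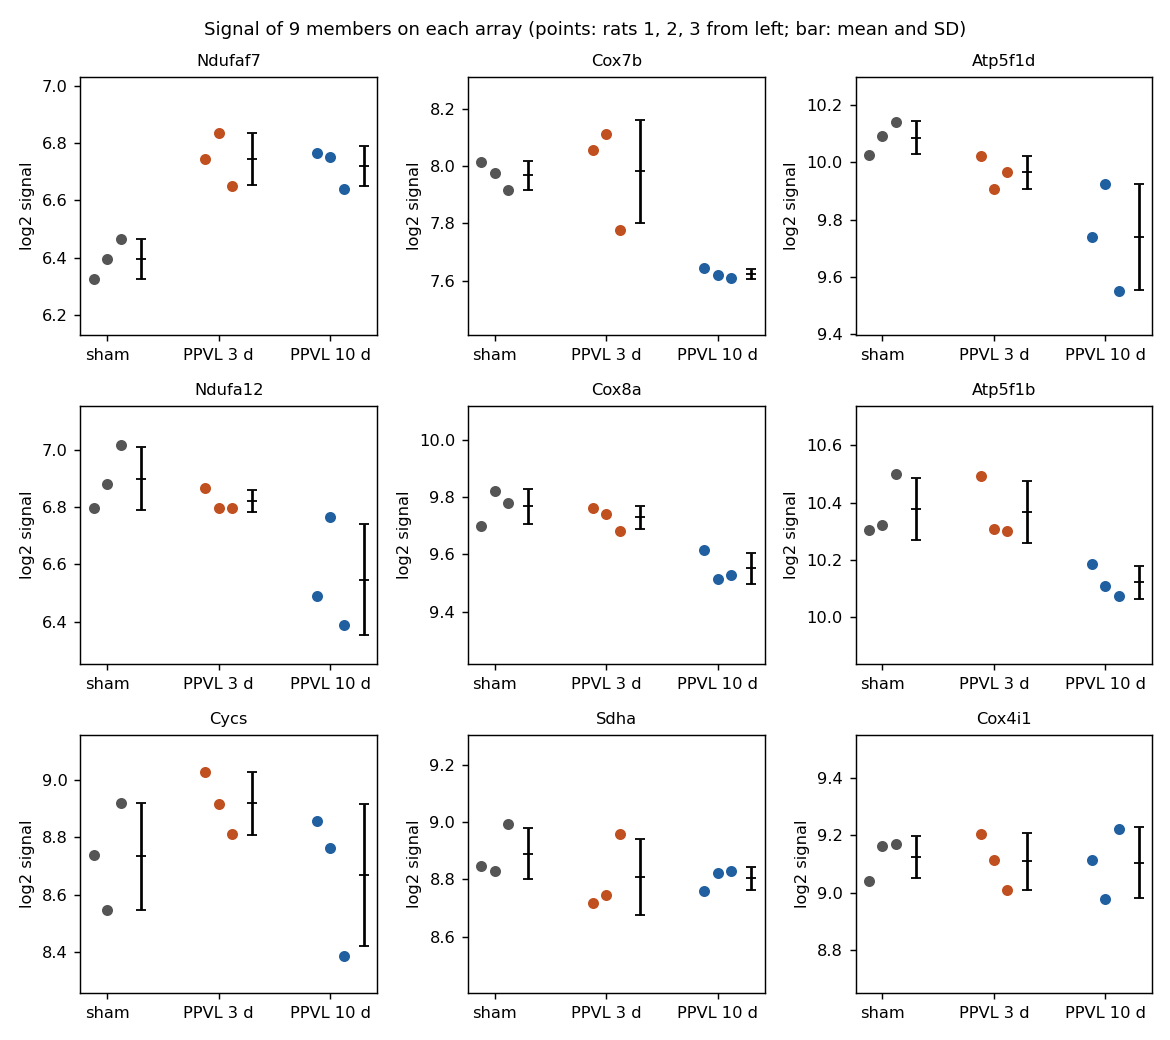
Deposited log2 signal on each array (points, 3 rats a group) with the group mean and SD beside them, for Ndufaf7, Cox7b, Atp5f1d, Ndufa12, Cox8a, Atp5f1b, Cycs, Sdha and Cox4i1, each on its own axis. Ndufaf7 in ligated rats (6.64 to 6.83) lies above sham (6.33 to 6.46), Cox7b at 10 days (7.61 to 7.64) lies below all other rats, and Sdha and Cox4i1 overlap between groups.

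Between the days, no member passed the test, against 0.0714% of all genes called. An unadjusted p under 0.05 was reached by 14 members, 11 lower at 10 days and 3 higher (14.4%), beside 11.3% of all genes (6.22% lower and 5.04% higher). The groups did not overlap for 19 members, 15 lower and 4 higher (19.6%), beside 14.6% of all genes (7.74% lower and 6.90% higher). For the lower direction alone the shares were 11.3% of members at an unadjusted p under 0.05 and 15.5% without overlap, both above the background of that direction. Cox7b differed by -0.36 ± 0.09 (adjusted p = 0.216) and Atp5pf by -0.36 ± 0.09 (adjusted p = 0.232). Atp5pf was at 7.29, 7.15 and 7.08 at 10 days, below the rats at 3 days and overlapping sham. Ndufb6 was at 6.31, 6.41 and 6.46 at 3 days and 6.16, 6.08 and 6.07 at 10 days, which is a difference of -0.29 ± 0.07 (adjusted p = 0.237). The median over the members was -0.022 with 66 of 97 below 0 (68.0%, beside 48.1% of all genes). After quantile normalization 50 of 97 members were below 0 and after median centring 73, so the split between the days moved with the scaling. Both days were compared with the same sham rats, and the days had no sham group of their own.

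Averaged over the 67 subunits, each taken relative to its own mean over the 9 arrays, the arrays stood at -0.015, 0.033 and 0.065 in sham, 0.055, 0.001 and -0.004 at 3 days and -0.040, -0.082 and -0.013 at 10 days. The rats at 10 days were lowest as a group but touched the sham range. For the 13 subunits of complex V the values were -0.016, 0.059 and 0.093 in sham, 0.088, 0.024 and -0.023 at 3 days and -0.063, -0.107 and -0.055 at 10 days. There the rats at 10 days lay below all others, as they did for the 7 subunits of complex III, which ran from -0.093 to -0.037 at 10 days and from -0.012 to 0.079 in the other rats. The same held outside the chain for 72 genes of the mitochondrial ribosome, at -0.051 to -0.034 against -0.012 to 0.045 in the other rats. No test is given for these means, since the genes were chosen with earlier results known. On the same arrays the natural killer cell markers averaged 0.175 to 0.238 in sham, -0.325 to 0.215 at 3 days and -0.261 to -0.178 at 10 days. At an adjusted p under 0.05, 2 of 11 T cell markers fell at 10 days, beside 0.243% of all genes. Adjusted for the marker score of T and natural killer cells, the median over the 97 members at 10 days was -0.078, with 68 below 0. The median over all genes was -0.036. No member was called in that fit, but neither was any of the 14014 genes, so this says nothing particular to the members. At an unadjusted p under 0.05, 4 members were lower and 3 higher in that fit. The share of all genes at that level is not given for it, so these counts have no background.

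**Figure D4:**
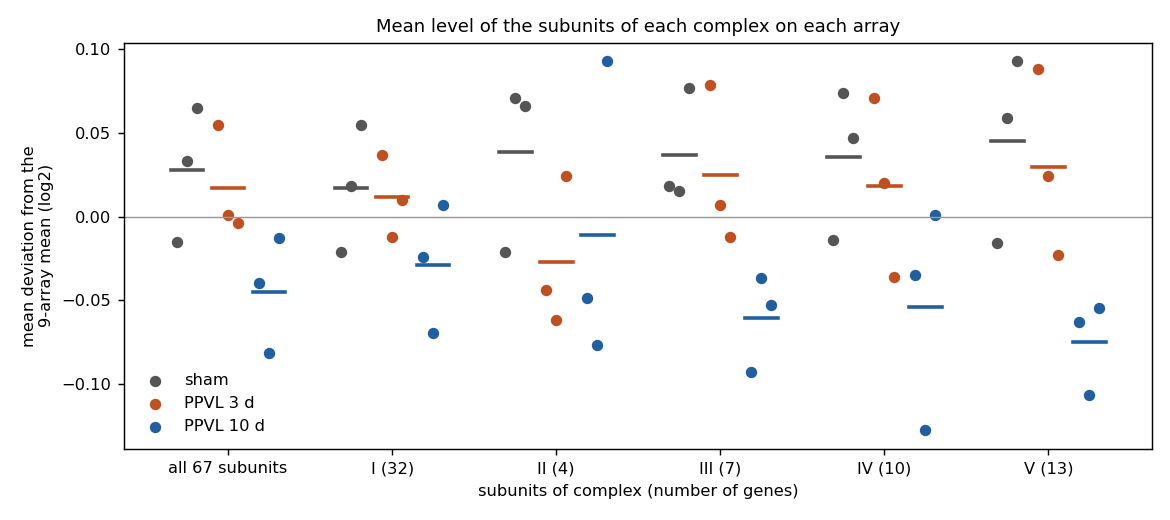
Mean over the subunits of each complex of the log2 signal relative to each gene's mean over the 9 arrays, with 1 point per rat and a bar at the group mean, for sham, 3 days and 10 days after PPVL. For complexes III and V the 3 points at 10 days lie below all others (-0.093 to -0.037 and -0.107 to -0.055), while complexes I, II and IV overlap.

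Isoforms of the oxidase known from other tissues were not called, and 3 of the 7 were below the filter. Cox4i2, the isoform of lung that responds to low oxygen, was at 4.32, 4.32 and 4.31 in sham, 4.19, 4.28 and 4.32 at 3 days and 4.47, 4.32 and 4.55 at 10 days. The groups overlapped, and the difference at 10 days was 0.13 ± 0.07 (adjusted p = 0.398). The muscle isoform Cox6a2 differed by -0.08 and -0.02. Ndufa4l2, a relative of Ndufa4 induced by low oxygen, lay below the filter on every array, between 3.61 and 3.89, and Cox7b2 and Cox8c were dim too. Cox7a1 was not among the genes with a single symbol, and Cox7a2 was measured only by probesets shared with a copy. The supercomplex factor Cox7a2l differed by 0.01 at 3 days and by 0.00 at 10 days.

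Gene copies and pseudogenes of the subunits gave no call either, and whether their probesets tell them from the parent genes was not tested. At 3 days the smallest p belonged to Atp5mgl1, annotated as a long noncoding RNA, with 5.18, 5.41 and 5.20 in sham and 4.89, 5.03 and 5.04 at 3 days. The groups did not overlap, and the difference was -0.28 ± 0.08 (adjusted p = 0.116). Atp5mc1l1 differed by -0.21 ± 0.07 (adjusted p = 0.198). With the score of T and natural killer cells in the fit these differences were -0.46 and -0.42. At 10 days Atp5mgl4 was at 5.14, 5.003 and 5.22, below the 5.38, 5.56 and 5.52 of sham, a difference of -0.37 ± 0.10 (adjusted p = 0.112), or -0.79 with the score of T and natural killer cells in the fit. The widest difference among all members at 3 days, -0.36 for Ndufb4l4, had a standard error of 0.28.

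Promoters of the members were read from the RefSeq table (build GRCr8, 250 bases before to 50 after the start), which held 85 of the 104. The searches used both strands and the letters GCGC, any base and TGCGC in a row for NRF1, CCGGAAG for the ETS motif bound by GABPA and AAGATGG for YY1. The NRF1 letters were found in 15 of 85 members (17.6%), against 6.09% of 19005 promoters of protein-coding genes. The ETS letters were found in 24 members (28.2%), against 11.2%, and the YY1 letters in 19 (22.4%), against 7.58%. A match is a run of letters and shows no binding. Stretches of 3 promoters are shown because their genes were among the subunits that lay lower at 10 days, with the matches of NRF1 and ETS letters in capitals: Cox8a on chr1:213833624-213833703 (minus strand) with 2 ETS matches, in reverse orientation, 57 and 19 bases before the start, Ndufa12 on chr7:30658176-30658235 (plus strand) with an NRF1 match 112 bases before the start, and Atp5po on chr11:44657514-44657573 (minus strand) with an NRF1 match 59 bases before the start.
Cox8a: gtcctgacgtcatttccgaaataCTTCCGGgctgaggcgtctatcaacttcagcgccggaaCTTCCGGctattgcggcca
Ndufa12: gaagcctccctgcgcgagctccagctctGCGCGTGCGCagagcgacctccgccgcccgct
Atp5po: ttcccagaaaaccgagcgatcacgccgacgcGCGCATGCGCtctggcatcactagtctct
They were picked for their matches: the promoters of Cox7b, Atp5f1d, Atp5f1b and Ndufb2, also lower at an unadjusted p under 0.05, held none of the letters searched. The genes that encode these factors showed no call at either time. Yy1 had the smallest p of the regulators at 10 days, with -0.13 ± 0.06 (adjusted p = 0.335). Gabpa differed by 0.06 ± 0.07 at 3 days, and Nrf1 differed by -0.04 ± 0.08 at 3 days and 0.04 ± 0.08 at 10 days.

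No gene of the other lists was called in any of the 3 comparisons, neither in the 6 lists of mitochondrial genes with tested members nor in that of the cytosolic ribosome. Gpd2, the glycerol 3-phosphate dehydrogenase that feeds electrons to ubiquinone past complex I, came closest, with 0.50 ± 0.11 at 3 days (adjusted p = 0.051) and 0.60 ± 0.11 at 10 days (adjusted p = 0.0522). Over the 19 tested genes of electron entry and exchange the median was -0.015 at 3 days and 0.010 at 10 days. Mpc1, which with Mpc2 forms the pyruvate carrier, differed by -0.28 ± 0.07 at 3 days (adjusted p = 0.0848), while the 17 genes of pyruvate dehydrogenase and the citric acid cycle had medians of 0.025 and -0.006. Of 15 genes of fatty acid oxidation 13 lay above 0 at 3 days, with a median of 0.090, and Hadh differed by 0.43 ± 0.13 (adjusted p = 0.119). At 10 days 7 of these 15 lay above 0. Among 17 regulators of biogenesis and mitochondrial DNA upkeep, Polg2, a subunit of the mitochondrial DNA polymerase, differed by 0.25 ± 0.07 at 3 days (adjusted p = 0.113). Among 27 assembly factors outside the prefixes, Higd1a, a factor of complex IV induced by low oxygen, differed by -0.36 ± 0.11 at 3 days (adjusted p = 0.142). At 10 days 20 of these 27 lay below 0 (74.1%, beside 50.2% of all genes), with a median of -0.057.

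Lists of ribosomal proteins had medians below 0 at 10 days, with no gene called. Of 72 genes of the mitochondrial ribosome, which makes the subunits encoded in mitochondrial DNA, 54 lay below 0 at 10 days, with a median of -0.079, and 7 (9.72%) were lower at an unadjusted p under 0.05, beside 8.21% of all genes. Mrpl55 and Mrps10 had the smallest p, at -0.45 ± 0.09 (adjusted p = 0.0624) and -0.27 ± 0.07 (adjusted p = 0.0893). For the cytosolic ribosome 26 genes were tested, taken by the symbol prefixes Rpl and Rps from genes with a single-symbol probeset. The prefixes also took Rps19bp1 and Rpl3l, and ribosomal genes without such a probeset are missing. Of these 26 genes 21 lay below 0, with a median of -0.097, and Rps13 differed by -0.24 ± 0.07 (adjusted p = 0.112). Lower at an unadjusted p under 0.05 were 7 of the 26 (26.9%), beside 8.21% of all genes. Without overlap 12 were lower (46.2%), beside 11.1% of all genes. At 3 days 21 of the 26 already lay below 0 (80.8%, beside 55.0% of all genes), with a median of -0.076. Medians below 0 at 10 days were thus found for lists outside the respiratory chain as well. Mitochondrially encoded subunits were not analysed here, since 0 of the 13 had a probeset with a single symbol under the names searched.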

How the data were processed

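RNA of hepatic macrophages from 9 rats was measured on 1-colour Affymetrix arrays. The deposited values are log2 signals, made by the authors with Transcriptome Analysis Console and RMA per the submitters' processing notes, with versions and genome build not given in the sources used here. They were used with no further normalization. Of 36685 probesets 18511 carried a single symbol in the platform annotation, 575 several and 17599 none. The filter on dim genes was the 30th percentile of probeset means (4.16). Linear models with a group term were fitted to all 9 arrays with limma 3.58.1 in R 4.3.3 (moderated 2-sided test, 6 residual and 3.59 prior degrees of freedom), with Benjamini-Hochberg adjustment over 14014 genes and a threshold of 0.05. The median standard error of a difference was 0.0792 over the members. For arrays no depth applies, and their number limits the precision.

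All 104 members matched RefSeq (GRCr8) by gene ID. The members and the gene lists were chosen with earlier results of these data known, so no p is given for a list. Named were the members past the test or with the smallest p up to 8 a comparison, a set of subunits whatever their values, and up to 4 genes a list. Cases outside that rule were chosen after their values were seen. Among them were the ends of each complex's range, the copies, the neighbours of Ndufaf7, and Atp5me, Cox5b, Uqcrfs1 and Nrf1. Fits were repeated with other filters, probeset choices, scalings, moderation, array weights, a replicate block, marker scores as covariates, only the groups compared, and without each array. The procedure was tested on simulated data, with a pass mark set only for the largest simulated difference and for false calls. That difference was larger than any found for a member, so the mark does not cover differences as small as theirs.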

Additional observations from a re-analysis of the deposited data

How the results depend on the processing

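Of the members, 1 was called at 3 days in the fit described, and 0 with all probesets, a replicate block, the hepatocyte covariate, the T and natural killer cell covariate, or only the 2 groups compared; without single arrays it was 0 to 1. At 10 days 1 was called with array weights (Ndufaf7, adjusted p = 0.0484), and 0 to 1 without single arrays. The replicate numbers did not pair the rats (9 same-number correlations from -0.095 to 0.084), and under the replicate block 264, 0 and 0 of all genes were called at 3 days, 10 days and between the days. Counts over all genes moved with the filter too, to 324 at 3 days and 0 at 10 days without it. In the same order of comparisons they were 114, 0 and 19 with the hepatocyte covariate. With the T and natural killer cell covariate they were 0, 0 and 0. The median over the members at 10 days was -0.078 with the T and natural killer cell covariate and -0.066 to -0.028 without single arrays. Between the days it was -0.050 with median centring, -0.055 with the T and natural killer cell covariate and -0.004 with quantile normalization.

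The differences that changed sign belonged to genes with no call. With the T and natural killer cell covariate these were Cox6a2 at 3 days (0.073) and, at 10 days, Cox7b (0.047), Cycs (0.415), Sdhd (-0.185), Cox4i2 (-0.082), Cox6a1 (-0.176), Cox6a2 (0.247) and Atp5if1 (-0.078). With median centring they were Sdhb (0.008) and Cox6a1 (0.002) at 3 days and Ndufa4 (-0.006) and Cox6a1 (-0.017) at 10 days. With array weights they were Cycs (0.001), Sdhd (-0.006) and Cox6a1 (-0.033), and with the hepatocyte covariate Ndufa4 (-0.097) and Sdhd (-0.017), all at 10 days. Without single arrays the ranges that crossed 0 were, at 3 days, Sdhb -0.079 to 0.050, Cox4i1 -0.063 to 0.036 and Cox6a1 -0.051 to 0.019. At 10 days they were Cycs -0.159 to 0.076, Ndufa4 -0.044 to 0.067, Sdhc -0.124 to 0.002, Sdhd -0.054 to 0.079, Cox4i1 -0.078 to 0.045, Cox6a1 -0.043 to 0.044 and Cox6a2 -0.067 to 0.020. The cause was not tested. With 3 rats a group and a median standard error of 0.0792, smaller differences could not be resolved.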

Other observations

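Probesets that carry several symbols were left out of the members. Ndufa10, Ndufa3, Atp5f1c, Cox7a2 and Atp5mc2 were measured only by such probesets, and the members Uqcrb and Ndufs5 had one beside their own. None was called, with adjusted p between 0.485 and 1 at 3 days and between 0.331 and 0.957 at 10 days (limma). The widest difference at 10 days was -0.21, for the probeset shared by Ndufa3 and a pseudogene.

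A few members had a dimmer probeset with another answer at 10 days. Atp5mk differed by 0.094 in the brighter and -0.203 in the dimmer probeset, and Ndufv3 by 0.032 and 0.239. Cox5a differed by -0.051 and -0.157. For Ndufb3 the probesets lay together at 3 days, at 0.223 and 0.243.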
